A study of Homo sapiens with 6 samples.

Results

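The aminoacyl-tRNA synthetase genes are the rows of the expression tables whose symbol is an amino acid letter followed by ARS or ARS2, together with EPRS, FARSA, FARSB and TARSL2. The rule found 38 genes among 20026 gene rows. They were set apart as 21 genes for enzymes of the cytosol and 17 genes, with symbols ending in 2, for enzymes of the mitochondrion. TARSL2 counts as cytosolic. All 38 passed the filter on low values.

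An aminoacyl-tRNA synthetase joins an amino acid to its tRNA, which the ribosome then reads. Human cells keep separate nuclear genes for the cytosolic and the mitochondrial enzyme of most amino acids, while GARS (glycine) and KARS (lysine) each give the enzyme of both compartments. Several cytosolic enzymes sit together in a multi-tRNA synthetase complex, and many cytosolic genes are known targets of ATF4, the transcription factor of the amino acid response. Mitochondrial enzymes charge tRNAs that read the mitochondrial genome, which encodes subunits of the respiratory chain.

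RNA was sequenced from HCT116, a human colon carcinoma line, in 3 stable forms with 2 libraries each. The TEAD4 K178R line over-expressed a mutant of TEAD4, the WT TEAD4 line over-expressed wild type TEAD4, and the control line is labelled only as control. TEAD4 is a DNA-binding factor through which the Hippo pathway coactivators reach their genes. The labels do not say whether a line is a clone, what the control line carries or what drives TEAD4. For WT replicate 2 the genotype field reads TEAD5 while the title reads TEAD4, and the title was followed. The labels do not state that both libraries of a line stem from different cultures. Each p-value therefore covers the variation among these 6 libraries alone, and that variation may be technical.

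TEAD4 was listed at 71.2 and 72.3 FPKM in the K178R libraries, 86.4 and 84.4 in the WT libraries, and 16.6 and 17.5 in the control libraries. FPKM, the deposited unit, correct fragment numbers for transcript length and for library size. They sum to between 283195 and 305329 per library, and the number of reads is unknown. Of 10 colon epithelial markers, 8 averaged at least 0.5 FPKM in every group, and CDX1 was listed at 0. Their summed level was 2893 to 2926 FPKM in K178R, 1855 to 1907 in WT and 2677 to 2722 in control. Of 7 fibroblast, 6 leukocyte and 4 endothelial markers, 1 each reached 0.5 FPKM, with summed levels between 1.14 and 3.78 FPKM. The part of these markers in the results below was not tested.

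In FPKM as deposited, the summed level of the synthetase genes was nearly constant. That depends on the scale. After median-of-ratios rescaling, described below, the median log2 change in WT against control was -0.12 for cytosolic and -0.12 for mitochondrial genes, beside 0.02 for all genes. The 21 cytosolic genes summed to 1011 and 1006 FPKM in the K178R libraries, 1009 and 1012 in the WT libraries, and 1024 in each control library. The 17 mitochondrial genes summed to 184 and 186 FPKM in K178R, 189 and 186 in WT, and 183 and 184 in control. Together they made up between 0.392% and 0.422% of all FPKM, lowest in the WT libraries, whose total over all genes was the highest. The ratio of the highest to the lowest of the 6 libraries had a median of 1.12 over the 38 genes and stayed under 1.2 in 30 of them. It was smallest for WARS (tryptophan), at 1.03, and largest for TARS2 (mitochondrial threonine), at 1.58.

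Among cytosolic genes the order of levels ran from KARS at the top to TARSL2 at the bottom in all 3 lines. KARS averaged 82.0 ± 1.04 FPKM in K178R, 82.8 ± 1.02 in WT and 88.9 ± 0.316 in control (SD, n = 2 each, as for all means below). In K178R its libraries overlap those of TARS, the next gene. TARSL2, a second cytosolic threonine enzyme, averaged 3.33 ± 0.285, 2.54 ± 0.0747 and 2.69 ± 0.353 FPKM in K178R, WT and control, against 74.3 to 83.0 FPKM for TARS over the 6 libraries. The median of the 21 cytosolic means was 46.5 FPKM in K178R, 44.1 in WT and 47.1 in control. The phenylalanine enzyme is built from an alpha chain (FARSA) and a beta chain (FARSB). FARSA averaged 63.3 ± 2.03 FPKM in K178R, 61.4 ± 0.454 in WT and 67.5 ± 0.619 in control, and FARSB 24.2 ± 0.2, 23.1 ± 0.827 and 23.9 ± 0.207 in the same lines. EPRS, which carries the glutamate and the proline enzyme in a single chain, averaged 42.4 ± 1.13, 44.1 ± 0.257 and 44.3 ± 0.702 FPKM. Neighbours in the middle of the cytosolic order, such as HARS, YARS, EPRS and AARS, lie within a few FPKM of each other, with libraries that interleave in part.

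Mitochondrial genes were listed lower. Their median was 9.67 FPKM in K178R, 8.46 in WT and 9.54 in control. IARS2 (isoleucine) stood alone at the top with 48.5 ± 1.84, 49.0 ± 0.320 and 45.9 ± 0.426 FPKM in K178R, WT and control, and YARS2 (tyrosine) followed at 17.1 to 20.6 FPKM over the 6 libraries. FARS2 (phenylalanine) was the lowest, between 0.865 and 1.24 FPKM. Its libraries overlap between the K178R and control lines. The median gap between replicates on the log2(FPKM + 1) scale was 0.04, 0.02 and 0.02 for cytosolic genes and 0.07, 0.06 and 0.04 for mitochondrial genes in K178R, WT and control.

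**Figure D1:**
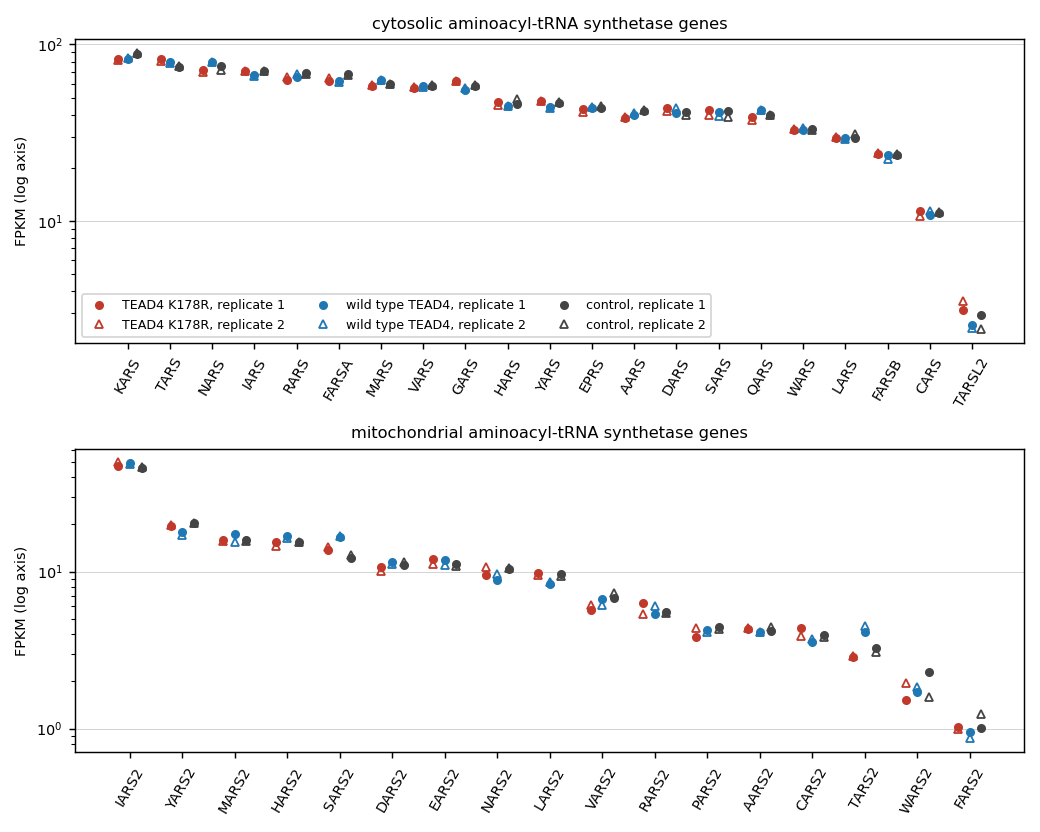
FPKM on a log axis of the 21 cytosolic (top) and 17 mitochondrial (bottom) synthetase genes, ordered by level, with circles for replicate 1 and triangles for replicate 2 of each line. Cytosolic genes run from 88.9 FPKM (KARS, control mean) to 2.54 (TARSL2, WT mean) and mitochondrial ones from 49.0 (IARS2, WT mean) to 0.906 (FARS2, WT mean), with the 3 lines close together at most genes.

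In the 18 pairs of a cytosolic and a mitochondrial gene of the same amino acid (17 amino acids), the cytosolic gene was the higher in every library. The ratio of FPKM was lowest for IARS over IARS2, at 1.46 ± 0.0507 in K178R, 1.36 ± 0.00224 in WT and 1.54 ± 0.0267 in control. It was highest for FARSA over FARS2, at 63.3 ± 3.34, 67.9 ± 3.8 and 60.8 ± 9.72. For threonine, TARS over TARS2 was at 28.9 and 27.6 in the K178R libraries, 19.3 and 17.3 in the WT libraries, and 22.7 and 24.6 in the control libraries. No library of one line falls within the range of another for this pair. SARS over SARS2 (serine) was 3.10 and 2.75 in K178R, 2.48 and 2.30 in WT, and 3.42 and 3.07 in control, with WT below both other lines and K178R overlapping control. SARS itself was listed at 42.3 and 39.6 FPKM in K178R, 41.2 and 39.1 in WT, and 41.9 and 38.9 in control. LARS, the leucine enzyme, was listed at 29.4 and 29.9 FPKM in K178R, 29.5 and 29.2 in WT, and 29.7 and 30.9 in control. VARS, the valine enzyme, was listed at 56.3 and 57.4 FPKM in K178R, 58.2 and 57.5 in WT, and 58.4 and 59.2 in control. None of these 3 partners was called in any comparison.

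**Figure D2:**
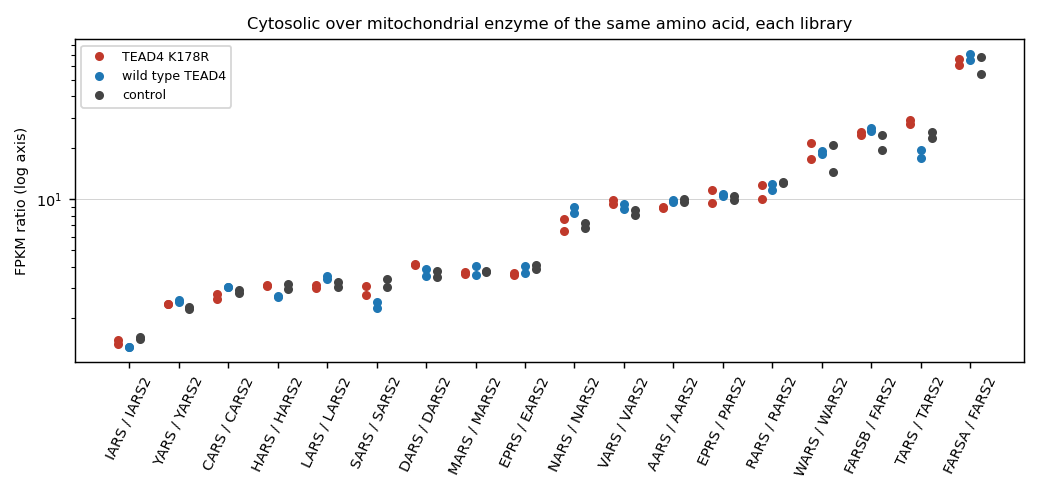
Ratio of cytosolic to mitochondrial FPKM on a log axis, 1 point per library, for the 18 pairs ordered by ratio. TARS over TARS2 is lowest in WT (mean 18.3), against 28.3 in K178R and 23.6 in control.

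Promoters were read from RefSeq (GRCh38.p14), from 250 bases before to 50 after each start, and 30 of the 38 genes had a window there. The core of the element that ATF4 binds with C/EBP partners, TGATGNAA on either strand, was in the windows of 7 of 16 cytosolic genes (43.8%) and of 1 of 14 mitochondrial genes (7.14%). It was in 3.60% of all 15842 protein-coding genes with a window. Among the 10 with a window that are usually listed as ATF4 targets, 7 held it (70%). Of the few cores searched here, this one had the widest gap in share between cytosolic and mitochondrial genes, so its matches are shown. That gap was not tested, and other sequence features were not searched. Each line gives 30 bases of the gene's own strand, 5′ to 3′, with the core in capitals.
AARS (chr16:70289675-70289704, minus strand): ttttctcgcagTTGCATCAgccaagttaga
CARS (chr11:3057407-3057436, minus strand): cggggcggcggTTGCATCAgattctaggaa
GARS (chr7:30594834-30594863, plus strand): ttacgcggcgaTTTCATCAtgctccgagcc
IARS (chr9:92293692-92293721, minus strand): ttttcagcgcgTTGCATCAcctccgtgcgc
MARS (chr12:57488053-57488082, plus strand): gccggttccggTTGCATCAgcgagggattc
NARS (chr18:57621804-57621833, minus strand): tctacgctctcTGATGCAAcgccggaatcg
TARS (chr5:33440956-33440985, plus strand): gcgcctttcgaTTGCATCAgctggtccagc
YARS2 (chr12:32756076-32756105, minus strand): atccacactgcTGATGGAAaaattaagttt
In 5 of the 7 cytosolic genes the core reads TTGCATCA, the reverse complement of the TGATGCAA seen in NARS, and in GARS the variable base differs. A match is a description of these letters, not of binding.

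The M-CAT core of TEAD factors, GGAATG on either strand, was in the windows of 1 of 16 cytosolic (CARS) and 3 of 14 mitochondrial genes (FARS2, WARS2, YARS2), against 15.6% of protein-coding genes. The core of ETS family factors, CCGGAAG on either strand, was in 9 of 16 cytosolic and 7 of 14 mitochondrial genes, against 16.5% of protein-coding genes. HARS and HARS2, which start in opposite directions, hold mirrored matches, 83 and 9 bases upstream in HARS and 82 and 8 in HARS2. These may be the same sites, counted in both classes. The NRF1 core GCGCANGCG was in 3 of 16 and 3 of 14, against 12.5%. The ETS core was found in SARS2 and TARS2, the mitochondrial genes called higher in the WT line below. It was also found in CARS2, EARS2, HARS2, MARS2 and PARS2, which were not called in that comparison. Any link between this core and the calls was not tested. For SARS2 and TARS2 alone it is shown here in capitals within 30 bases of each window.
SARS2 (chr19:38930927-38930956, minus strand): gcttctagcctCTTCCGGgcgctatccgtg
TARS2 (chr1:150487234-150487263, plus strand): acattttcggtCTTCCGGtcagccggaacc
Both carry it on the strand opposite to the gene. Neither window held the TEAD core or the ATF4 core.

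In GENCODE release 29 (GRCh38), 11 of the 38 (28.9%) have an oppositely directed protein-coding start within 1000 bases, 7 of 17 mitochondrial (41.2%) and 4 of 21 cytosolic (19.0%), against 12.95% of all protein-coding genes. HARS and HARS2, the cytosolic and mitochondrial histidine enzymes, are such a pair with starts 436 bases apart. SARS2 lies at chr19:38915266-38930896 on the minus strand, with its start 348 bases from that of MRPS12, a mitochondrial ribosomal protein gene. Of the 50-base words in the SARS2 transcript, 86.9% also occur in another gene, 71.9% on the same strand in the read-through gene AC011455.2 and the others in antisense to MRPS12. TARS2 lies at chr1:150487364-150507609 on the plus strand, with 2.91% of its words shared. The handling of shared reads and of strand is not given in the sources used here, so the level of SARS2 cannot be told apart from that of its overlapping transcripts.

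The first comparison is of the line that over-expressed WT TEAD4 with the control line. An effect of TEAD4 cannot be told apart here from other differences between the lines. Between the WT and control lines, a test over 11445 genes (limma on log2(FPKM + 1), two-sided, adjusted p under 0.05) called 5 of the 38 synthetase genes higher and 6 lower. That is 28.9% of them, where 49.9% of all genes were called, 37.6% higher and 12.2% lower. The median change was -0.04 for the cytosolic and -0.05 for the mitochondrial genes on the log2 scale, beside 0.09 for all genes, and 34 of the 38 lay below the median of all genes. Their absolute change had a median of 0.07, beside 0.15 over all genes, and reached 0.2 in 3 of the 38, where 39.0% of all genes did. The libraries of both groups did not overlap for 27 of the 38 genes, where 76.8% of all genes did not overlap. In bulk RNA, fewer cells of a type and less RNA per cell cannot be told apart.

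The directions depend on the scaling. When the libraries were brought to a common scale by the median of ratios, the median change of all genes shifted by -0.08, to 0.02, and 46.8% of all genes were called, 25.7% higher and 21.1% lower. On that scale 0 cytosolic genes were called higher and 12 lower, in place of 3 higher and 4 lower as deposited. Of the mitochondrial genes 2 were called higher and 4 lower, in place of 2 and 2. Upper-quartile scaling gave 0 higher and 13 lower among cytosolic genes and 2 higher and 4 lower among mitochondrial ones, where 47.3% of all genes were called, 24.1% higher and 23.2% lower.

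**Figure D3:**
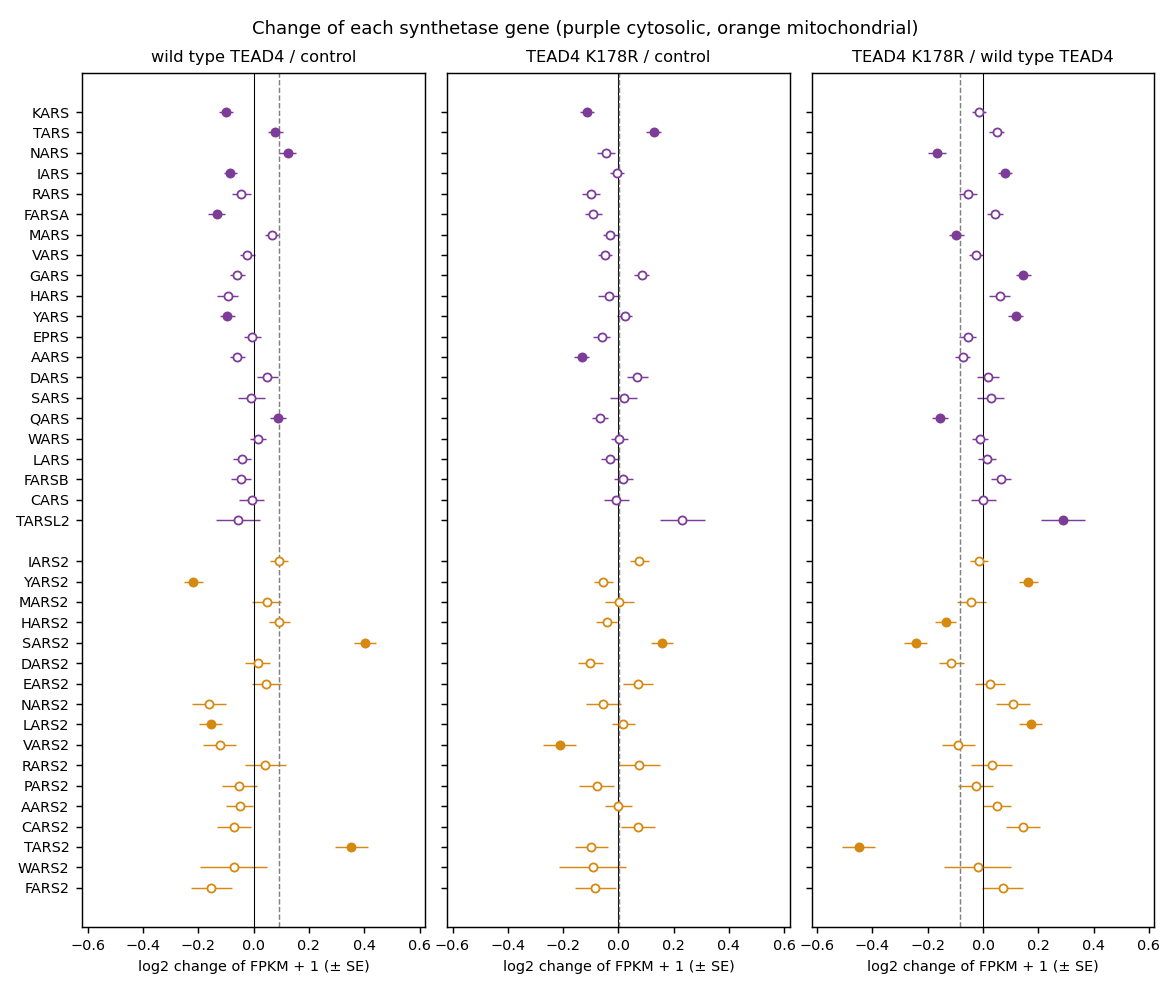
Change of each gene on the log2(FPKM + 1) scale with its standard error, in the 3 comparisons, with filled points for an adjusted p under 0.05 and a dashed line at the median of all genes. TARS2 and SARS2 stand apart in WT over control (0.35 and 0.40) and in K178R over WT (-0.45 and -0.24), while the WT over control values of QARS and TARS turn negative under rescaling.

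**Figure D4:**
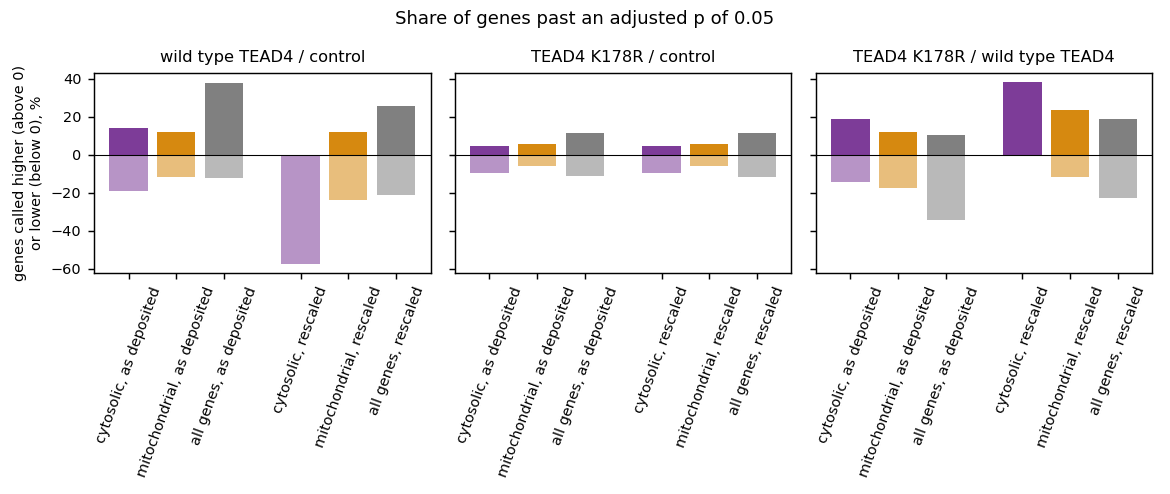
Percentage of genes called higher (bars above 0) and lower (pale bars below 0) among cytosolic, mitochondrial and all genes, as deposited and after median-of-ratios rescaling. In WT over control, 0 cytosolic genes are called higher and 12 of 21 lower after rescaling, against 3 and 4 as deposited.

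The calls that held under all 14 alternatives in the WT line were mitochondrial. SARS2, which charges mitochondrial serine tRNA, was listed at 16.65 and 16.96 FPKM in WT, against 12.2 and 12.7 in control, and rose by log2 0.40 (SE 0.04, limma adjusted p = 2.9e-04), a ratio of means of 1.35. TARS2, which charges mitochondrial threonine tRNA, was listed at 4.11 and 4.54 FPKM in WT, against 3.27 and 3.07 in control, and rose by log2 0.35 (SE 0.06, limma adjusted p = 0.0025), a ratio of means of 1.36. In both genes each WT library lies above each control library. MRPS12, which overlaps SARS2 in antisense, had 64.9 and 60.9 FPKM in WT and 62.6 and 56.9 in control, libraries that overlap (log2 0.07, limma adjusted p = 0.241). No level is shown for the read-through gene AC011455.2, which holds 71.9% of the SARS2 words on the same strand. SARS2 and AC011455.2 cannot be told apart, here or in the comparisons below.

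YARS2, which charges mitochondrial tyrosine tRNA and is mutated in a myopathy with anaemia, was listed at 17.9 and 17.1 FPKM in WT, against 20.6 and 20.5 in control. It fell by 0.22 on the log2 scale (SE 0.03, limma adjusted p = 0.00194). LARS2, the mitochondrial leucine enzyme, was listed at 8.29 and 8.63 FPKM in WT, against 9.66 and 9.42 in control, and fell by 0.16 (SE 0.04, limma adjusted p = 0.0175). Groups do not overlap for either gene. SARS2, TARS2 and YARS2 kept their call under all 14 alternatives, with changes between 0.30 and 0.43, 0.27 and 0.44, and -0.32 and -0.19. LARS2 missed the threshold without WT replicate 1 or control replicate 1 (adjusted p 0.0849 and 0.0886). The other 13 mitochondrial genes were not called, and their changes ran from -0.16 (NARS2) to 0.09 (HARS2).

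In the cytosol the changes in the WT line were small and went both ways. FARSA was listed at 61.7 and 61.1 FPKM in WT, against 67.9 and 67.1 in control, and fell by 0.13 (SE 0.03, limma adjusted p = 0.00868). KARS was listed at 82.1 and 83.6 FPKM in WT, against 88.7 and 89.1 in control, and fell by 0.10 (SE 0.03, limma adjusted p = 0.0136). YARS, the tyrosine enzyme, whose fragments can act as cytokines, was listed at 44.4 and 43.6 FPKM in WT, against 46.7 and 47.4 in control, and fell by 0.09. In these genes each WT library lies below each control library. IARS, the isoleucine enzyme of the complex, was listed at 66.8 and 66.4 FPKM in WT, against 71.1 and 70.3 in control, and fell by 0.08. The limma adjusted p was 0.0237 for YARS and 0.0244 for IARS. YARS shares 9.31% of its 50-base words, in antisense, with S100PBP, which was listed at 4.61 and 4.83 FPKM in WT and 5.54 and 5.75 in control (log2 -0.22, limma adjusted p = 0.0212). These 4 synthetase genes stayed lower under both rescalings, where the fall was between 0.18 and 0.24.

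NARS, the asparagine enzyme, was listed at 79.7 and 79.9 FPKM in WT, against 75.0 and 71.4 in control, and rose by 0.12 (limma adjusted p = 0.0154), a call that rescaling removed (0.03 and 0.02). QARS, the glutamine enzyme, was listed at 42.7 and 42.3 FPKM in WT, against 39.9 and 40.1 in control, and rose by 0.09 (limma adjusted p = 0.0428), where rescaling gave values of -0.0027 and -0.018. TARS was listed at 79.6 and 78.4 FPKM in WT, against 74.3 and 75.3 in control, and rose by 0.08 (limma adjusted p = 0.047), where rescaling gave -0.013 and -0.029. As deposited, the WT libraries of these 3 genes lie above the control libraries. The limits of single libraries are tight here. Without any of the 4 libraries compared, IARS and QARS were no longer called (adjusted p 0.062 to 0.109 and 0.0999 to 0.138), and TARS was lost without any of the 6 (0.0547 to 0.179). KARS was lost without WT replicate 1 or either control library (0.053 to 0.0671), YARS without WT replicate 2 or either control library (0.0605 to 0.111), NARS without either WT library or control replicate 2 (0.0507 to 0.0944), and FARSA without control replicate 1 (0.0506). The other 14 cytosolic genes were not called. Their changes ran from -0.09 (HARS) to 0.07 (MARS), and GARS, at 55.4 and 56.6 FPKM in WT and 57.9 and 59.0 in control, was at -0.06 (limma adjusted p = 0.101).

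Against control, the K178R line had 2 of the 38 genes called higher and 3 lower, 13.2%, where 22.8% of all genes were called, 11.7% higher and 11.1% lower. Median changes were -0.03 for cytosolic, -0.04 for mitochondrial and 0.00 for all genes. Libraries did not overlap for 22 of the 38, where 63.1% of all genes did not overlap. A change of at least 0.2 was seen in 2 of the 38, where 18.6% of all genes had such a change. Median-of-ratios rescaling, with 22.9% of all genes called (11.2% higher, 11.6% lower), left the counts of members as they were. Upper-quartile scaling, with 23.2% called (10.6% higher, 12.7% lower), gave 4 cytosolic genes lower in place of 2.

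TARS was listed at 83.0 and 80.6 FPKM in K178R, against 74.3 and 75.3 in control, and rose by 0.13 (SE 0.03, limma adjusted p = 0.0153). SARS2 was listed at 13.7 and 14.4 FPKM in K178R, against 12.2 and 12.7 in control, and rose by 0.16 (SE 0.04, limma adjusted p = 0.0306), with MRPS12 at 58.1 and 58.3 in K178R and 62.6 and 56.9 in control (log2 -0.04). AARS, the alanine enzyme, was listed at 38.3 and 38.6 FPKM in K178R, against 42.0 and 42.5 in control, and fell by 0.13 (SE 0.03, limma adjusted p = 0.0151). In all 3 the K178R libraries are separate from the control libraries. KARS was listed at 82.8 and 81.3 FPKM in K178R, against 88.7 and 89.1 in control, and fell by 0.11 (SE 0.03, limma adjusted p = 0.0175). VARS2, the mitochondrial valine enzyme, was listed at 5.74 and 6.15 FPKM in K178R, against 6.78 and 7.31 in control, and fell by 0.21 (SE 0.06, limma adjusted p = 0.0433). VARS2 shares 22.0% of its exonic bases with GTF2H4 on the same strand, which stood at 26.8 and 26.9 FPKM in K178R and 25.2 and 24.8 in control (log2 0.10, limma adjusted p = 0.0592). By 50-base words, the longest coding VARS2 transcript shares 0.0% with another gene.

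None of these 5 calls held under all 14 alternatives. AARS, KARS and VARS2 were lost without any of the 4 libraries compared (adjusted p 0.061 to 0.0809, 0.0519 to 0.0961 and 0.0727 to 0.20). TARS was lost without K178R replicate 1 or either control library (0.0574 to 0.0892), and SARS2 without K178R replicate 2 or either control library (0.0712 to 0.151). TARS2, at 2.87 and 2.92 FPKM in K178R and 3.27 and 3.07 in control, was not called (log2 -0.10, limma adjusted p = 0.285), although its groups do not overlap. YARS2 was at -0.05 and LARS2 at 0.02, both not called. TARSL2 was at 0.23 (limma adjusted p = 0.080), with 3.12 and 3.53 FPKM in K178R and 2.94 and 2.44 in control.

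The comparison of both TEAD4 lines asks where the K178R line differs from the WT line. Their TEAD4 levels differ too, at 71.2 and 72.3 FPKM in K178R and 86.4 and 84.4 in WT. The mutation, this level and other differences between the lines cannot be told apart. Between K178R and WT, 6 of the 38 genes were called higher and 6 lower, 31.6%, where 44.9% of all genes were called, 10.4% higher and 34.5% lower. The median change was 0.01 for cytosolic and -0.02 for mitochondrial genes, beside -0.08 for all genes, and 8 of the 38 lay below the median of all genes. The libraries did not overlap for 23 of the 38, where 74.2% of all genes did not overlap. A change of at least 0.2 was seen in 3 of the 38, where 34.5% of all genes had such a change. After median-of-ratios rescaling 41.6% of all genes were called, 19.0% higher and 22.6% lower. Cytosolic genes were then called higher in 8 and lower in 0 cases, in place of 4 and 3, and mitochondrial genes in 4 and 2 cases, in place of 2 and 3. Upper-quartile scaling gave 9 and 0 cytosolic and 4 and 2 mitochondrial genes, with 41.8% of all genes called, 19.8% higher and 22.0% lower.

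TARS2 had the widest gap, with 2.87 and 2.92 FPKM in K178R, against 4.11 and 4.54 in WT, a ratio of means of 0.669. It fell by 0.45 on the log2 scale (SE 0.06, limma adjusted p = 0.00117). SARS2 was listed at 13.7 and 14.4 FPKM in K178R, against 16.65 and 16.96 in WT, and fell by 0.24 (SE 0.04, limma adjusted p = 0.00297), while MRPS12 was listed at 58.1 and 58.3 in K178R and 64.9 and 60.9 in WT (log2 -0.11, limma adjusted p = 0.107). HARS2 was listed at 15.4 and 14.6 FPKM in K178R, against 16.8 and 16.4 in WT, and fell by 0.14 (SE 0.04, limma adjusted p = 0.0249). Of the 50-base words of HARS2, 15.7% also occur in another gene, in antisense in HARS or on the same strand in ZMAT2. HARS was listed at 47.5 and 45.6 FPKM in K178R, against 44.6 in each WT library, and was not called (0.06, limma adjusted p = 0.246).

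YARS2 was listed at 19.6 and 19.9 FPKM in K178R, against 17.9 and 17.1 in WT, and rose by 0.16 (SE 0.03, limma adjusted p = 0.00802). LARS2 was listed at 9.79 and 9.54 FPKM in K178R, against 8.29 and 8.63 in WT, and rose by 0.17 (SE 0.04, limma adjusted p = 0.0131). For all 5 of these mitochondrial genes the K178R and WT libraries do not overlap. TARS2, SARS2 and YARS2 kept their call under all 14 alternatives (-0.56 to -0.38, -0.28 to -0.16 and 0.14 to 0.25). HARS2 was lost without K178R replicate 2 or either WT library (adjusted p 0.0564 to 0.132) and under both rescalings, and LARS2 without K178R replicate 1 or WT replicate 1 (0.0679 and 0.0685).

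**Figure D5:**
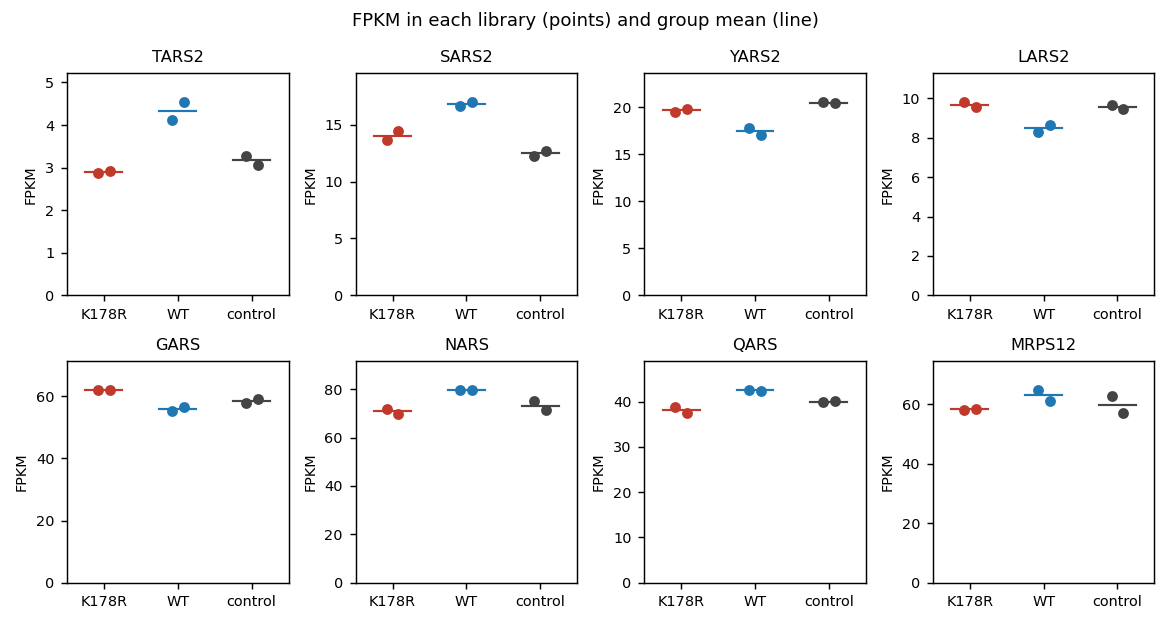
FPKM in each library (points) with the group mean (line), axes from 0, for 7 synthetase genes and MRPS12, the antisense neighbour of SARS2. TARS2 and SARS2 are highest in the WT libraries (means 4.32 and 16.8 FPKM), YARS2, LARS2 and GARS lowest there (17.5, 8.46 and 56.0 FPKM).

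Of the cytosolic genes, GARS, the glycine enzyme of cytosol and mitochondrion whose variants cause a hereditary neuropathy, was listed at 62.2 and 61.9 FPKM in K178R, against 55.4 and 56.6 in WT. It rose by 0.15 (SE 0.03, limma adjusted p = 0.00451) and kept its call under all 14 alternatives (0.13 to 0.24). YARS was listed at 47.6 and 48.1 FPKM in K178R, against 44.4 and 43.6 in WT, and rose by 0.12 (SE 0.03, limma adjusted p = 0.0115). TARSL2 was listed at 3.12 and 3.53 FPKM in K178R, against 2.59 and 2.49 in WT, and rose by 0.29 (SE 0.08, limma adjusted p = 0.0229). These K178R libraries lie above the WT libraries in each case. IARS was listed at 70.3 and 70.6 FPKM in K178R, against 66.8 and 66.4 in WT, and rose by 0.08 (limma adjusted p = 0.0324).

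NARS was listed at 71.97 and 69.95 FPKM in K178R, against 79.7 and 79.9 in WT, and fell by 0.17 (SE 0.03, limma adjusted p = 0.00503). QARS was listed at 38.7 and 37.4 FPKM in K178R, against 42.7 and 42.3 in WT, and fell by 0.15 (SE 0.03, limma adjusted p = 0.00516). MARS, the methionine enzyme, was listed at 58.0 and 59.3 FPKM in K178R, against 62.5 and 62.9 in WT, and fell by 0.10 (SE 0.03, limma adjusted p = 0.0211). All 3 lie lower in K178R without overlap, and none was called after either rescaling, where NARS was at -0.08 under both, QARS at -0.07 under both and MARS at -0.01 under both. IARS was lost without any of the 6 libraries (adjusted p 0.0507 to 0.119). MARS was lost without K178R replicate 1 or either WT library (0.0593 to 0.111), TARSL2 without K178R replicate 2 or either WT library (0.0586 to 0.121), and YARS without replicate 2 of either line (0.0569 and 0.058). KARS, at 82.8 and 81.3 FPKM in K178R and 82.1 and 83.6 in WT, was not called (-0.01), and EPRS was at -0.05, also not called.

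By place in the cell, the cytosolic genes divide into 8 enzymes of the multi-tRNA synthetase complex (EPRS, IARS, LARS, MARS, QARS, RARS, KARS, DARS) and 13 free ones, and the difference between the lists was not tested. In WT against control, 1 complex gene was called higher and 2 lower, and 2 free genes higher and 2 lower, beside 37.6% of all genes higher and 12.2% lower. In K178R against control the counts were 0 and 1 in the complex, and 1 and 1 outside it, beside 11.7% and 11.1% of all genes. In K178R against WT they were 1 and 2 in the complex, with a median of -0.03, and 3 and 1 outside it, with a median of 0.04, beside 10.4% and 34.5% of all genes. After median-of-ratios rescaling WT against control gave 0 higher and 5 lower in the complex and 0 higher and 7 lower outside it, beside 25.7% and 21.1% of all genes. On that scale K178R against WT gave 1 higher and 0 lower in the complex and 7 higher and 0 lower outside it, beside 19.0% and 22.6%. Of the 3 scaffold proteins, AIMP2 rose in K178R, with 17.4 and 17.6 FPKM against 14.5 and 15.7 in control (log2 0.20, limma adjusted p = 0.0232), and AIMP1 and EEF1E1 were called in no comparison.

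The 12 synthetase genes usually listed as ATF4 targets gave 2 higher and 2 lower in WT against control, 1 and 1 in K178R against control, and 3 and 2 in K178R against WT. That is 33.3%, 16.7% and 41.7% called, beside 49.9%, 22.8% and 44.9% of all genes. After median-of-ratios rescaling these counts became 0 and 6, 1 and 1, and 4 and 0, where 46.8%, 22.9% and 41.6% of all genes were called. The 7 cytosolic genes whose promoter core is printed above gave 2 higher and 1 lower, 1 and 1, and 2 and 2 in the same order as deposited, and 0 and 3, 1 and 1, and 3 and 0 under either rescaling. ATF4 itself, named after its values were seen, had 49.5 and 50.7 FPKM in K178R, 49.3 and 49.6 in WT, and 50.3 and 49.4 in control, values that overlap.

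Of the other genes of the ATF4 and amino acid response, 33 of 36 listed were tested, and 60.6%, 36.4% and 45.5% were called in WT against control, K178R against control and K178R against WT, beside the 49.9%, 22.8% and 44.9% of all genes. Of these, 11 were called higher and 9 lower in WT against control, 9 and 3 in K178R against control, and 11 and 4 in K178R against WT. Of all genes 37.6% were called higher and 12.2% lower, 11.7% and 11.1%, and 10.4% and 34.5%, in the same order. After median-of-ratios rescaling the counts were 5 and 14, 8 and 3, and 18 and 3. On that scale the shares of all genes were 25.7% and 21.1%, 11.2% and 11.6%, and 19.0% and 22.6%. ATF5, a related transcription factor, was listed at 14.5 and 15.0 FPKM in K178R, 11.8 and 10.5 in WT, and 18.3 and 19.2 in control, and fell in both lines against control (-0.32 in K178R and -0.70 in WT). ATF3, another stress factor, rose in WT by 0.58, with 6.95 and 6.92 FPKM against 4.48 and 4.17 in control, and was lower in K178R than in WT (-0.40). In WT against control STC2 (-0.44), a secreted stress glycoprotein, and CHAC1 (-0.37), which degrades glutathione, also fell.

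In the same list SLC7A5, which brings in large neutral amino acids, was listed at 173.5 and 174.0 FPKM in K178R and 122 in each WT library, beside 156 and 159 in control, and was higher in K178R than in WT by 0.51 (limma adjusted p = 2.25e-05). SLC7A11, the cystine carrier, was listed at 8.03 and 7.67 FPKM in K178R, 4.93 and 5.84 in WT, and 5.32 and 5.29 in control, and rose in K178R against control (0.49) and against WT (0.47). CTH, which makes cysteine, rose in K178R against control (0.53), and SLC38A2, a neutral amino acid carrier, fell (-0.35). CHAC1 was higher in K178R than in WT (0.45). All of these calls stood after both rescalings.

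Of 10 kinases and adaptors of the amino acid response, 5 were called higher and 2 lower in WT against control, 3 and 1 in K178R against control, and 1 and 1 in K178R against WT. In WT against control 37.6% of all genes were called higher and 12.2% lower, and the other comparisons called 22.8% and 44.9% of all genes. After median-of-ratios rescaling the counts were 5 and 3, 2 and 1, and 2 and 1, where 46.8%, 22.9% and 41.6% of all genes were called. SESN1, of the sestrin family that senses leucine, was listed at 3.74 and 4.29 FPKM in K178R, 7.99 and 7.85 in WT, and 5.16 and 4.46 in control. It rose in WT against control (0.62) and was lower in K178R than in WT (-0.83). EIF2AK3 (0.30), the kinase of the unfolded protein response, RRAGC (0.27), a GTPase of amino acid sensing, and IMPACT (0.25), which restrains the kinase EIF2AK4, also rose in WT against control. In K178R against control IMPACT (0.21), RRAGC (0.17) and EIF2AK4 (0.14) rose and GCN1 (-0.17), a partner of that kinase, fell. EIF2AK4 was not called after either rescaling. EIF2S1, the translation factor these kinases act on, was higher in K178R than in WT (0.11).

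Among the users of charged tRNA, the 7 cytosolic elongation factors gave 2 higher and 2 lower in WT against control, 0 and 4 in K178R against control, and 1 and 2 in K178R against WT. These are 57.1%, 57.1% and 42.9% called, beside 49.9%, 22.8% and 44.9% of all genes. After median-of-ratios rescaling the counts were 0 and 4, 0 and 4, and 2 and 2, where 46.8%, 22.9% and 41.6% of all genes were called. EEF1A2, which carries charged tRNA to the ribosome, was listed at 189 and 194 FPKM in K178R, 191 and 188 in WT, and 226 in each control library, and fell in both lines (-0.24 in K178R and -0.25 in WT). EEF1D, an exchange factor subunit, fell in both lines too (-0.11 and -0.22) and was higher in K178R than in WT (0.12). EEF1G, another subunit, was lower in K178R than in control (-0.18) and than in WT (-0.30), and EEF1A1 lower in K178R than in WT (-0.17). EEF2, the translocation factor, fell in K178R against control (-0.09). EEF1G (0.12) and EEF1A1 (0.09) rose in WT against control as deposited, and neither was called after rescaling, where EEF1A1 was at 0.00 and -0.02.

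Of 13 mitochondrial translation factors and charging helpers, 2 were called higher and 0 lower in WT against control, 1 and 1 in K178R against control, and 0 and 3 in K178R against WT. The shares called, 15.4%, 15.4% and 23.1%, lie below the 49.9%, 22.8% and 44.9% of all genes. Rescaling by the median of ratios gave 1 and 1, 0 and 1, and 1 and 1, where 46.8%, 22.9% and 41.6% of all genes were called. GATC is a subunit of the amidotransferase that makes glutamine tRNA in mitochondria from the product of EARS2. It was listed at 8.84 and 8.99 FPKM in K178R, 11.1 and 10.6 in WT, and 8.998 and 8.922 in control, and rose in WT against control (0.25) and was lower in K178R than in WT (-0.26). Those calls stood after rescaling. EARS2 itself was not called in any comparison, with 12.1 and 11.2 FPKM in K178R, 11.91 and 10.96 in WT, and 11.2 and 10.9 in control. MTIF3 (0.21 in WT against control), MTRF1L (0.15 in K178R against control) and TUFM (-0.17) and TSFM (-0.11) in K178R against WT were called as deposited and in neither rescaled fit, while TSFM in K178R against control (-0.13) kept its call.

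Proofreading and related proteins, 7 genes, gave 4 higher and 0 lower in WT against control, 1 and 0 in K178R against control, and 0 and 3 in K178R against WT. The shares called were 57.1%, 14.3% and 42.9%, beside 49.9%, 22.8% and 44.9% of all genes. The counts were 1 and 0, 1 and 0, and 0 and 1 after median-of-ratios rescaling, where 46.8%, 22.9% and 41.6% of all genes were called. DTD2, which removes mischarged alanine from threonine tRNA, was listed at 7.85 and 7.97 FPKM in K178R, 9.57 and 9.01 in WT, and 7.10 and 6.91 in control. It rose in WT against control (0.36), a call that both rescalings kept, and was lower in K178R than in WT (-0.21), a call that they removed. PTRH2, which releases peptides from tRNA, was lower in K178R than in WT (-0.23). PSTK, a kinase of selenocysteine tRNA, was at 0.23 in WT against control and -0.27 in K178R against WT, and AARSD1, an alanine editing protein, at 0.14 in WT against control, calls that rescaling removed.

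Of 20 genes for tRNA transcription and modification, 2 were called higher and 8 lower in WT against control, 0 and 2 in K178R against control, and 5 and 3 in K178R against WT. Of all genes 37.6% were called higher and 12.2% lower in WT against control, 11.7% and 11.1% in K178R against control, and 10.4% and 34.5% in K178R against WT. After median-of-ratios rescaling the counts were 1 and 11, 0 and 2, and 10 and 2, beside 25.7% and 21.1%, 11.2% and 11.6%, and 19.0% and 22.6% of all genes. WDR4, a subunit of the enzyme that places 7-methylguanosine in tRNA, was listed at 7.578 and 7.735 FPKM in K178R, 5.18 and 5.10 in WT, and 7.08 and 7.02 in control, and fell in WT against control (-0.39) and was higher in K178R than in WT (0.49). MAF1, the repressor of RNA polymerase III, was listed at 40.4 and 37.4 FPKM in K178R, 45.8 and 46.7 in WT, and 39.2 and 39.1 in control, and rose in WT against control (0.24). POLR3B (-0.21), a polymerase III subunit, and TRMT61A (-0.20), a tRNA methyltransferase subunit, fell in WT against control, and TRMT61A (0.25) and POLR3C (0.23) were higher in K178R than in WT. In K178R against control POLR3E (-0.14) and NSUN2 (-0.12), a tRNA cytosine methyltransferase, fell.

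WARS is the synthetase known to be induced by interferon gamma. It was listed at 32.7 and 33.3 FPKM in K178R, 32.9 and 33.6 in WT, and 33.1 and 32.7 in control, values that overlap (log2 0.01 in WT and 0.00 in K178R, each against control). Under upper-quartile scaling WARS was at -0.090 in WT against control (limma adjusted p = 0.0413). Interferon genes were set beside it. PSMB9, an immunoproteasome subunit, was listed at 0.767 and 1.17 FPKM in K178R, 4.20 and 4.75 in WT, and 0.938 and 0.450 in control (log2 1.71 in WT against control and -1.48 in K178R against WT). TAP1, a peptide transporter of antigen presentation, was listed at 9.52 and 10.2 FPKM in K178R, 19.6 and 19.8 in WT, and 9.75 and 9.68 in control (0.95 in WT against control and -0.93 in K178R against WT). PSMB9 and TAP1 were called in both of these comparisons, and neither was called in K178R against control. IRF1, an interferon-induced transcription factor, was listed at 3.10 and 2.42 FPKM in K178R, 3.69 and 3.35 in WT, and 2.87 and 2.13 in control. It rose in WT against control (log2 0.38, limma adjusted p = 0.0343), a call lost under median-of-ratios (adjusted p = 0.0704) and upper-quartile scaling (adjusted p = 0.0783).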

How the data were processed

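The members and gene lists were chosen with earlier results of these data known. Each library had 1 table of FPKM values, which the authors deposited for 20030 gene rows. The 4 rows with a repeated identifier were left out. Bowtie 0.12.2, a read aligner, and the build hg18 are the entries in the submitters' processing notes. How FPKM were computed (program, annotation, strand, shared reads) is not given in the sources used here. Per the labels' protocols, libraries were made from total RNA with a TruSeq kit.

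The 11445 genes that reached 0.5 FPKM in 2 or more libraries were tested with limma 3.58.1 (trend, R 4.3.3) on log2(FPKM + 1) over all 6 libraries. No scaling was added. The p-values were adjusted by Benjamini-Hochberg within each comparison, with a threshold of 0.05. Adding 1 understates the change of low genes. The script was checked on simulated data with 200 changed genes among 11225 tested. The changed genes were drawn only from genes well above the filter in control. The script recovered 14% of log2 changes of 0.15, 74% of 0.3, 94% of 0.6 and 100% of 1.0. These rates do not cover the low genes. They may also differ in the data, where 22.8% to 49.9% of all genes were called in a comparison. A gene not called may still have changed by a small amount. Counts of reads are unknown, so no count model or interval was used. No samples were left out.

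Values in every library are given for called members, at most 8 cytosolic and 5 mitochondrial per comparison, for their partner enzymes, and for GARS, KARS, EPRS and TARSL2. Of other lists up to 4 called genes with the widest change are named. The counts of the interferon gene list are not reported here. MRPS12, GTF2H4, S100PBP and ATF4 were added after their values were seen, as were the levels of EARS2, FARS2, IARS2 and WARS. Alternatives were a pseudocount of 0.1, other filters, median-of-ratios and upper-quartile scaling, limma without trend, the replicate number as a block, control averaged as 1 sample, and each library left out. Loci and promoters come from GENCODE release 29 and RefSeq GRCh38.p14, a newer build than hg18, and were matched by symbol. Figures used matplotlib 3.10.9.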

Additional observations from a re-analysis of the deposited data

Results flagged for a closer look

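For 12 synthetase genes the change in the K178R line and the change in the WT line, each against control, differed by the direct test between both lines (limma, adjusted p under 0.05 over all genes). The K178R effect minus the WT effect was highest for TARSL2 at 0.29 on the log2(FPKM + 1) scale, followed by LARS2 at 0.17, YARS2 at 0.16, GARS at 0.15, YARS at 0.12 and IARS at 0.081. It was lowest for TARS2 at -0.45, followed by SARS2 at -0.24, NARS at -0.17, QARS at -0.15, HARS2 at -0.14 and MARS at -0.10. The same test called 44.9% of all genes, so the 31.6% of synthetase genes is below that background. The control level cancels in this difference, which equals the change in K178R against WT. These are therefore the same 12 calls as in that comparison above, not further results.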

How the results depend on the processing

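Counts below are of synthetase genes called higher and lower. For the 2 scalings the shares of all genes called are given above. For every other setting that share is not given here. A change in those counts therefore cannot be read as particular to the synthetase genes. Without WT, K178R or control libraries in turn, where a lone library is assumed to vary like the other groups, WT against control gave 0 to 2 cytosolic genes higher and 1 to 4 lower (3 and 4 with all 6 libraries), and 2 to 3 mitochondrial genes higher and 1 to 3 lower (2 and 2). K178R against control gave 0 to 1 and 0 to 2 cytosolic, and 0 to 1 and 0 to 1 mitochondrial. K178R against WT gave 1 to 3 and 2 to 3 cytosolic, and 1 to 2 and 2 to 3 mitochondrial. In WT against control, median-of-ratios scaling gave 0 and 12 cytosolic and 4 mitochondrial genes lower, upper-quartile scaling 0 and 13 and 4. In K178R against WT they gave 8 and 0 and 9 and 0 cytosolic, and 4 mitochondrial genes higher under each. Upper-quartile scaling gave 4 cytosolic genes lower in K178R against control. In WT against control, QARS turned to -0.0027 and -0.018 and TARS to -0.013 and -0.029 under the 2 scalings, in that order, and WARS to -0.090 under upper-quartile scaling. Both scalings divided the WT libraries by 1.04 to 1.05 and the others by 0.970 to 0.985.

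Without trend, limma gave 0 cytosolic genes higher and 1 lower in WT against control, and 0 higher and 0 lower of either kind in K178R against control. With the control libraries averaged as 1 sample, WT against control gave 1 and 1 cytosolic and 1 mitochondrial gene lower, and K178R against control 0 and 0 of either kind. With no filter, K178R against control gave 0 and 0 mitochondrial genes. The cause of these losses was not tested. A pseudocount of 0.1 and the stricter filter kept all counts within 1.5 times. The changes of TEAD4 kept direction and call throughout.

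The replicate numbers do not pair the libraries, since deviations from the group means of the same number correlated at 0.03 for K178R and WT, -0.03 for K178R and control and 0.02 for WT and control over 11445 genes. With the replicate number as a block, 1 cytosolic gene was called higher in WT against control and 0 mitochondrial genes lower in K178R against control, and other counts stayed within 1.5 times. The number of reads behind each FPKM is unknown, so the limit that depth sets could not be measured.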
